A study of Arabidopsis thaliana with 26 samples.

Results

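RRP44KD rrp6L2 rrp41 RRP41Pi-Cat- plants lack the catalytic activity of the exosome core in a background in which both other exosome nucleases, RRP44 and RRP6L2, were already impaired. The 2 libraries of this genotype, selected by the deposited genotype label, were compared with the 4 libraries of the same background in which the core was active, namely 2 of RRP44KD rrp6L2 rrp41 RRP41WT and 2 of RRP44KD rrp6L2. These 6 libraries are part of 26 libraries of 13 genotypes. All came from rosette leaves of Arabidopsis thaliana (Col-0), and 3′RACE-seq recorded the last nucleotide of a 5′ external transcribed spacer (5′ ETS) fragment and any untemplated tail behind it.

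In RRP44KD, RRP44 was downregulated by an artificial miRNA expressed from the mesophyll-specific CAB3 promoter, because the loss of RRP44 is lethal, and transformants were chosen for a comparable accumulation of the P-P′ fragment. The rrp6L2 allele is a T-DNA insertion. The rrp41 null allele is lethal by itself, so that RRP41WT and RRP41Pi-Cat- plants lived on a myc-tagged or GFP-tagged transgene with its own promoter, while RRP44KD rrp6L2 plants kept the untagged endogenous RRP41. RRP41Pi-Cat- carries mutations in the site that coordinates phosphate and in the site that coordinates magnesium. Each RNA sample was a pool of plants, and the 2 replicates of a genotype were grown at separate times. Light cycles are given differently by the sample labels (16 h light and 8 h darkness) and by the methods of the study, and plant age is not part of the labels. The reads cover the 5′ ETS only, so that neither the knockdown of RRP44 nor the RRP41 transgene could be checked in them.

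The RNA exosome degrades and trims RNA from the 3′ end. In plants its ring-shaped core, Exo9, has kept a phosphorolytic activity in the RRP41 subunit, whereas the cores of yeast and human rely on the associated hydrolytic nucleases RRP44 and RRP6. The P-P′ fragment is cut out of the 5′ ETS of the ribosomal RNA precursor and is then removed by the exosome. MTR4 is the RNA helicase on which the Arabidopsis exosome relies in the nucleolus, while the related HEN2 acts in the nucleoplasm. Short oligo(A) tails are added to exosome substrates by nuclear poly(A) polymerases. The ends recorded here are those of P-P′ and its shortened forms, and a share says where the ends lay, not how much of the fragment was present.

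Positions are counted from the first nucleotide of P-P′ and written with a P, and an end at P170 means that this nucleotide was the last one matching the reference. The region that held 95.7% and 96.3% of the ends in the RRP41Pi-Cat- libraries and between 94.4% and 96.4% in the libraries with active Exo9 runs over nucleotides 140 to 200. Its sequence is shown because the changes lie inside it, and the capitals mark, in order, P161, P169, P170, P176 and P186.
P-P′ 140 to 200, TAIR10.1 chr3:14197254-14197314, plus strand: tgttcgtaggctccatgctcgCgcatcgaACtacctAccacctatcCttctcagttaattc
The stretch lies in the transcribed spacer of a ribosomal RNA repeat, 363 nt upstream of the 18S rRNA gene AT3G41768. Identical stretches are present on chromosome 2, at chr2:3283-3343 and chr2:7191300-7191360, so that reads cannot be given to one repeat. The last 20 nt of 4 of the ends discussed most are set out with their final nucleotide in capitals.
P166, chr3:14197261-14197280: aggctccatgctcgcgcatC
P170, chr3:14197265-14197284: tccatgctcgcgcatcgaaC
P176, chr3:14197271-14197290: ctcgcgcatcgaactacctA
P186, chr3:14197281-14197300: gaactacctaccacctatcC
Adenosines in the template limit what can be read about tails, since an added A that falls on a templated A is counted as part of the fragment. They are the capitals in the stretch from P157 to P190.
P-P′ P157 to P190, chr3:14197271-14197304: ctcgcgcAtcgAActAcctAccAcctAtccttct

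The RRP41Pi-Cat- libraries held 18434 and 2996 reads, against 11364 and 4208 in the RRP41WT libraries and 22465 and 10843 in the RRP44KD rrp6L2 libraries. RRP41Pi-Cat- replicate 2 was thus the shallowest of the 6. In the 26 libraries of the series the number of reads ranged from 1621 to 23152. Reads are deduplicated, and a position without reads could still hold up to 0.0163% or 0.1001% of the ends in the RRP41Pi-Cat- libraries (3 reads of the total). These limits and all 95% Wilson intervals cover counting error only. Shares sum to the whole in each library, so that a gain at one end lowers the others.

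Both RRP41Pi-Cat- libraries had another leading end than the 4 libraries with active Exo9. P170 was the most frequent end in each RRP41Pi-Cat- library and P169 the next one, while P176 ranked first in each library with active Exo9. In the RRP41Pi-Cat- plants the ends were also more frequent at P163 to P166 and at P185 and P186, and less frequent at P150, P151, P157, P158, P160, P161, P176 and P177. Of 48 positions with a mean share of at least 0.1%, limma called 18 at an adjusted p below 0.05, that is 37.5% of those tested, 9 higher and 9 lower (18.8% each), and 24 (50%) were below an unadjusted p of 0.05. With log shares centred on the library median, an alternative chosen after seeing the data, the split was 4 higher and 13 lower. The number called was 9 without RRP41Pi-Cat- replicate 2 and 11 without RRP44KD rrp6L2 replicate 1.

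**Figure D1:**
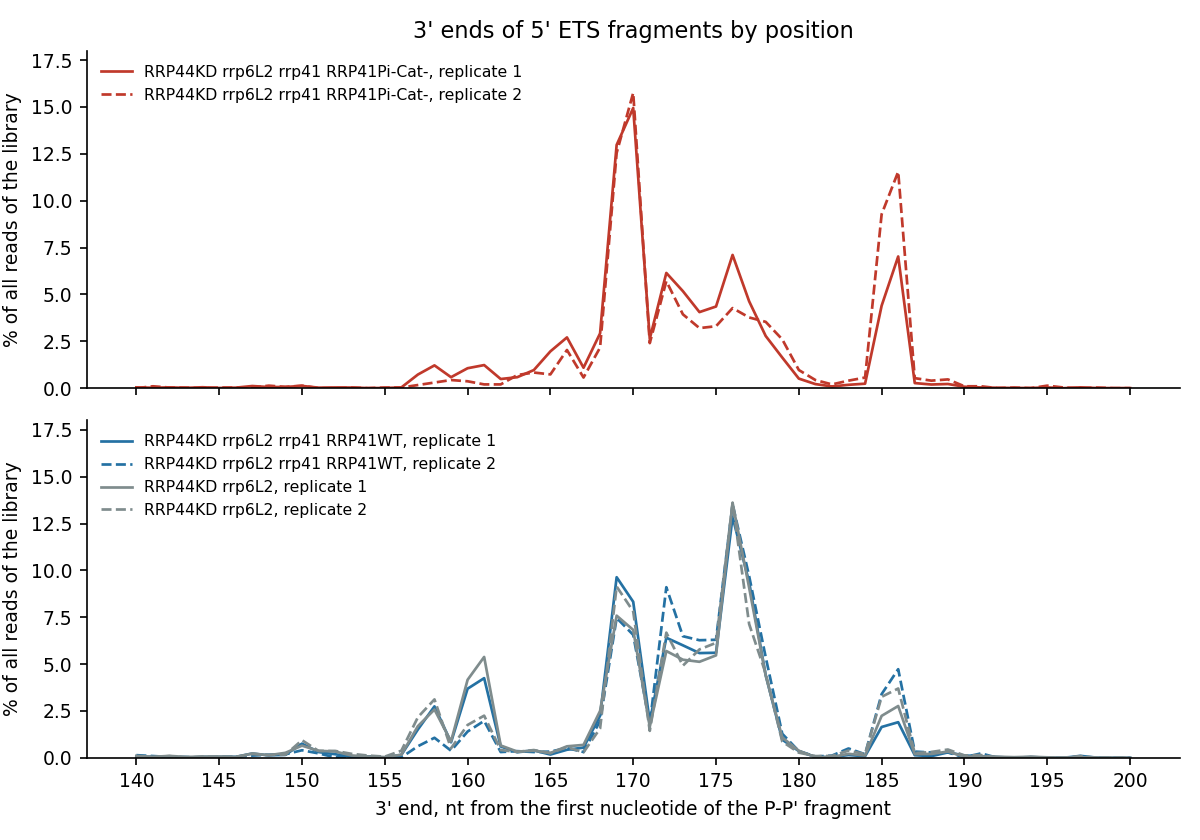
Share of all reads (percent) that end at each nucleotide of P-P′ from 140 to 200, with the RRP41Pi-Cat- libraries in the upper panel, the 4 libraries with active Exo9 in the lower panel, solid lines for replicate 1 and dashed lines for replicate 2. P170 leads in both RRP41Pi-Cat- libraries with 14.9% and 15.8%, and P176 leads in the 4 libraries with active Exo9 with 12.9% to 13.6%.

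The whole profile was compared by the share of reads that would have to move to another position to turn one profile into the other, which is 0% for the same profile and 100% for profiles without a common end. Between an RRP41Pi-Cat- library and a library with active Exo9 it was 26.3% to 39.2% in 8 pairs. Between RRP41WT and RRP44KD rrp6L2 libraries it was 7.48% to 14.6% in 4 pairs. Between replicates of one genotype it was 12.3% to 16.4% in 3 pairs. The 8 pairs across Exo9 activity were all farther apart than any pair that shares it.

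Between the genotypes with active Exo9 no position was called. RRP41WT was compared with endogenous RRP41 over the same 48 positions in the same fit, and limma called 0 of them (0%), with 1 position (2.08%), P152, below an unadjusted p of 0.05. The estimate was largest at P152, where RRP41WT was lower by 1.25 than endogenous RRP41 (adjusted p = 0.992).

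P170 lies 1 nt behind the paired adenosines of the template. It gained most in percentage points. It held 14.9% and 15.8% of all reads in the RRP41Pi-Cat- libraries, against 8.32% and 6.56% in the RRP41WT libraries and 6.82% and 7.81% in the RRP44KD rrp6L2 libraries. The lower of the RRP41Pi-Cat- values was above every value with active Exo9, and the intervals of 14.4% to 15.5% and 14.5% to 17.1% overlapped each other. Group means were 15.3% ± 0.572 (SD, n = 2) and 7.38% ± 0.829 (SD, n = 4), and the difference on the log2(percent + 0.1) scale used for all fits was 1.05 ± 0.15 (SE, adjusted p = 0.00271, limma). P170 passed in all 19 alternatives that were tried.

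P169 is the second of these templated adenosines, and an untailed fragment and fragments with an A-tail that started further upstream can both be recorded there. It held 12.98% and 12.55% in the RRP41Pi-Cat- libraries, against 9.64% and 7.46% in the RRP41WT libraries and 7.59% and 9.14% in the RRP44KD rrp6L2 libraries. The groups did not overlap, and P169 was higher by 0.60 ± 0.16 (SE, adjusted p = 0.0221, limma). The call was lost in 8 of 19 alternatives, including those without a filter on low shares (adjusted p = 0.196), with 26 libraries in the fit (0.192), without the trend (0.101), with centred log shares (0.134) and with T reads only (0.0574). Others concerned the tails. Among untailed reads alone P169 held 2.96% and 4.0% in the RRP41Pi-Cat- libraries, against 2.45% to 3.48% in the 4 libraries with active Exo9, a difference of 0.17 with an adjusted p of 0.720. When tails made of A only were moved upstream over templated A, P169 held 4.87% and 5.44%, against 3.0% to 4.06%, and P167 held 9.20% and 7.68%, against 4.21% to 6.43%. The difference at P169 was then 0.51 with an adjusted p of 0.160, and the adjusted p was 0.0829 without RRP44KD rrp6L2 replicate 1.

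The neighbouring P168 did not pass. Its share was 2.92% and 2.17% in the RRP41Pi-Cat- libraries, against 2.24% and 1.97% in the RRP41WT libraries and 2.50% and 1.57% in the RRP44KD rrp6L2 libraries. The values overlapped, and the difference of 0.29 ± 0.36 (SE, adjusted p = 0.545, limma) was smaller than its error.

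Upstream of this pair, a set of ends that are rare with active Exo9 was more frequent in the RRP41Pi-Cat- plants. P166 held 2.71% and 2.04% of the reads in the RRP41Pi-Cat- libraries, against 0.431% and 0.523% in the RRP41WT libraries and 0.614% and 0.572% in the RRP44KD rrp6L2 libraries. It was the clearest member of the set, higher by 1.96 ± 0.32 (SE, adjusted p = 0.00325, limma), and it passed in all 19 alternatives. P165 held 1.96% and 0.734% in the RRP41Pi-Cat- libraries, against 0.176% to 0.333% in the 4 libraries with active Exo9. The increase at P165 was 1.91 ± 0.40 (SE, adjusted p = 0.00901) although the replicates differed from each other beyond their intervals of 1.77% to 2.17% and 0.485% to 1.11%.

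P163 and P164 moved in the same direction by smaller steps. P164 held 0.966% and 0.834% in the RRP41Pi-Cat- libraries, against 0.309% to 0.415% with active Exo9, and P163 held 0.586% and 0.701%, against 0.299% to 0.356%. Both were called (1.07 with an adjusted p of 0.0221 for P164, and 0.80 with an adjusted p of 0.0423 for P163), and neither overlapped between the groups. With a pseudocount of 0.5% the changes were 0.68 at P164 and 0.47 at P163, and that at P165 was 1.21. P163 is the least stable of all, being lost in 12 of 19 alternatives, and without any one of the 6 libraries its adjusted p lay between 0.0538 and 0.207. P164 had an adjusted p of 0.0574 without RRP41WT replicate 2, of 0.106 without RRP44KD rrp6L2 replicate 1 and of 0.0619 without RRP44KD rrp6L2 replicate 2. The positions P163 to P167 together held 7.31% and 4.87% of the ends in the RRP41Pi-Cat- libraries, against 1.83% to 2.28% with active Exo9.

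P176 and P177 lost most in percentage points. P176, the leading end with active Exo9, held 7.11% and 4.27% in the RRP41Pi-Cat- libraries, against 12.9% and 13.5% in the RRP41WT libraries and 13.6% in both RRP44KD rrp6L2 libraries. Its means were 5.69% ± 2.00 (SD, n = 2) and 13.4% ± 0.362 (SD, n = 4), so that the 4 libraries with active Exo9 lay close together and the RRP41Pi-Cat- libraries did not. P176 fell by 1.27 on the log2 scale (SE 0.20, adjusted p = 0.00271, limma). P177 held 4.63% and 3.77% in the RRP41Pi-Cat- libraries, against 9.36% and 9.70% in the RRP41WT libraries and 9.08% and 7.14% in the RRP44KD rrp6L2 libraries, and fell by 1.05 (SE 0.19, adjusted p = 0.00400). Of the 19 alternatives, one removed these calls, the fit of all 26 libraries, in which the adjusted p was 0.0530 for P176 and 0.0828 for P177.

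The positions around P176 and P177 and between them and P170 did not pass. P172 held 6.15% and 5.71% in the RRP41Pi-Cat- libraries, against 5.70% to 9.10% with active Exo9. P173 held 5.18% and 3.94%, against 4.92% to 6.49%. P174 and P175 did not overlap between the groups, with 4.06% and 3.20% at P174, against 5.12% to 6.27%, and with 4.36% and 3.304% at P175, against 5.47% to 6.30%, but their adjusted p was 0.0561 and 0.0581. At P178 the values were 2.78% and 3.54%, against 4.39% to 5.37%, with an adjusted p of 0.112. At P171 they were 2.64% and 2.40%, against 1.44% to 1.93% (adjusted p = 0.215), and at P179 1.63% and 2.60%, against 0.867% to 1.28% (adjusted p = 0.0757), in both cases with the higher values in the RRP41Pi-Cat- plants. None of these 7 positions was called. Non-overlap by itself was frequent, as it held for 26 of the 48 positions (54.2%).

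A downstream pair of ends was more frequent in the RRP41Pi-Cat- plants. P186 held 7.03% and 11.5% in the RRP41Pi-Cat- libraries, against 1.90% and 4.73% in the RRP41WT libraries and 2.76% and 3.70% in the RRP44KD rrp6L2 libraries. P185 held 4.40% and 9.28% in the RRP41Pi-Cat- libraries, against 1.65% and 3.40% in the RRP41WT libraries and 2.24% and 3.26% in the RRP44KD rrp6L2 libraries. At both ends replicate 2 was above replicate 1 in all 3 genotypes. P186 rose by 1.51 (SE 0.39, adjusted p = 0.0221, limma) and P185 by 1.304 (SE 0.42, adjusted p = 0.0421). Without RRP41Pi-Cat- replicate 2 the increase was 1.15 with an adjusted p of 0.141 for P186 and 0.77 with an adjusted p of 0.382 for P185. Without RRP44KD rrp6L2 replicate 1 the adjusted p of P185 was 0.0644, and with centred log shares it was 0.169 for P185 and 0.10 for P186.

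The shortest ends of the region were less frequent in the RRP41Pi-Cat- plants. P161 held 1.23% and 0.200% in the RRP41Pi-Cat- libraries, against 4.25% and 1.97% in the RRP41WT libraries and 5.38% and 2.25% in the RRP44KD rrp6L2 libraries. P160 held 1.06% and 0.367% in the RRP41Pi-Cat- libraries, against 3.69% and 1.40% in the RRP41WT libraries and 4.16% and 1.75% in the RRP44KD rrp6L2 libraries. At both ends the groups did not overlap, but each also varied more than 2-fold among the libraries with active Exo9. Replicate 2 was below replicate 1 at both ends in every genotype. Among libraries with the same replicate number, RRP41Pi-Cat- had the lowest share each time. The fall was 2.38 on the log2 scale at P161 (SE 0.66, adjusted p = 0.0262, limma) and 1.81 at P160 (SE 0.58, adjusted p = 0.0421). P158 held 1.22% and 0.300% in the RRP41Pi-Cat- libraries, against 1.07% to 3.12% with active Exo9, and P157 held 0.727% and 0.167%, against 0.618% to 2.17%. They fell by 1.67 at P158 (adjusted p = 0.0474) and by 1.65 at P157 (adjusted p = 0.0421), with values that overlapped in RRP41WT replicate 2. All positions from P157 to P162 together held 5.31% and 1.67% of the ends in the RRP41Pi-Cat- libraries, against 13.6% and 5.75% in the RRP41WT libraries and 15.3% and 10.2% in the RRP44KD rrp6L2 libraries.

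The fit takes no account of the replicate numbers, and in it these calls depended on RRP41Pi-Cat- replicate 2. This library rests on 6 reads at P161 and 11 at P160. Without it the difference was -1.302 at P161 (adjusted p = 0.202), -1.15 at P160 (adjusted p = 0.300), -0.83 at P157 and -0.82 at P158 (adjusted p = 0.404 for both). Leaving out RRP44KD rrp6L2 replicate 1 also ended the calls at P157, P158 and P160 (adjusted p = 0.0543, 0.0546 and 0.0714), leaving out RRP44KD rrp6L2 replicate 2 those at P157 and P158 (adjusted p = 0.0602 and 0.0701), and leaving out RRP41WT replicate 1 that at P158 (adjusted p = 0.0536). P150 and P151, still further upstream, kept their calls without any one of the 6 libraries. P151 held 5 reads (0.0271%) and 0 reads in the RRP41Pi-Cat- libraries, against 0.238% to 0.374% with active Exo9, and P150 held 0.119% and 0.134%, against 0.404% to 0.941%. P151 fell by 1.89 (SE 0.29, adjusted p = 0.00271) and passed in all 19 alternatives, and P150 fell by 1.75 (SE 0.32, adjusted p = 0.00400) and was lost only where low shares were not filtered out (adjusted p = 0.0564). With so few reads the size of the fall depended on the pseudocount. It was -3.46 at P151 and -2.21 at P150 with 0.02%, and -0.68 at P151 and -0.90 at P150 with 0.5%, and P157 moved to -1.07 with 0.5%. Reads with C instead of T at P137 cannot be recorded at P150 and P151. Such reads were more frequent in the RRP41Pi-Cat- libraries, as described below, which lowers the shares of all reads at both ends there. Among reads with T alone P150 fell by 1.23 (adjusted p = 0.0410, limma) and P151 by 2.28 (adjusted p = 0.00849).

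**Figure D2:**
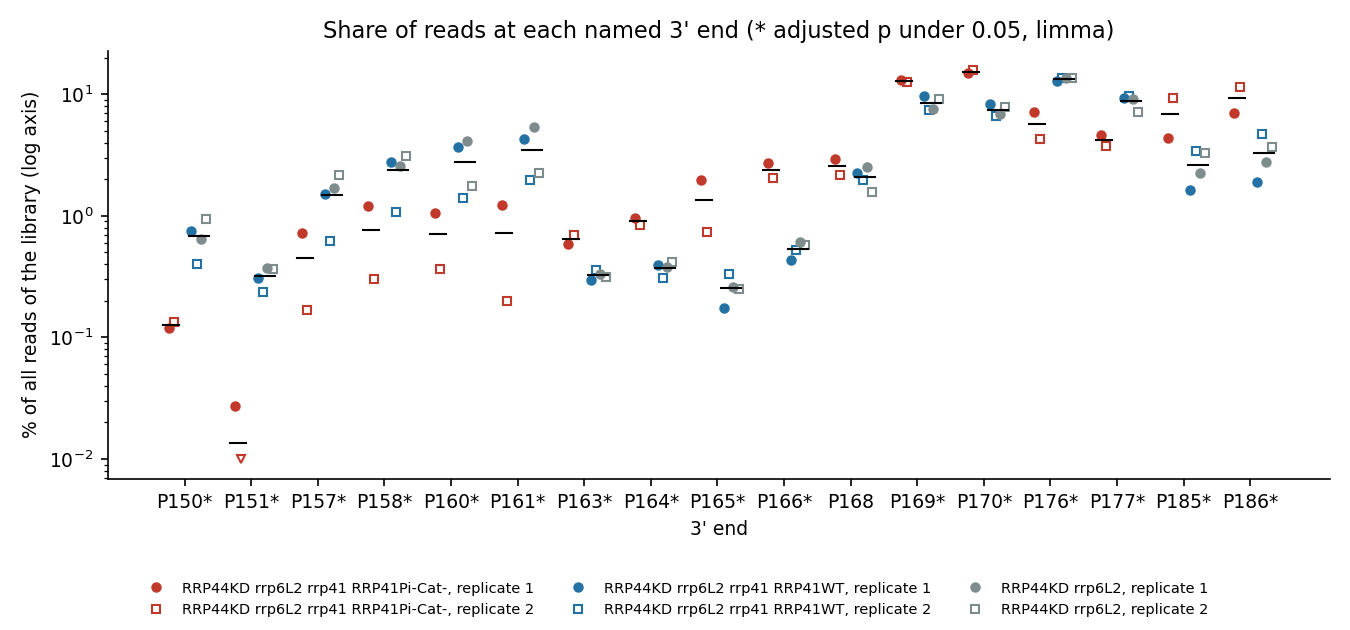
Share of all reads (percent, log axis) at the 17 positions described, RRP41Pi-Cat- on the left of each pair and the libraries with active Exo9 on the right, with filled circles for replicate 1, open squares for replicate 2, bars for group means and asterisks for an adjusted p below 0.05 (limma). The open triangle at the bottom marks the library with 0 reads at P151, and P168 is the position without an asterisk.

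Outside the rule that selected these positions, which is given with the methods, 2 further positions were called and are named after their values were seen. P181 held 0.217% and 0.434% in the RRP41Pi-Cat- libraries, against 0.0401% to 0.0922% with active Exo9, and was higher by 1.36 (adjusted p = 0.0221, limma). P152 held 7 reads and 0 reads in the RRP41Pi-Cat- libraries, against 0.0238% to 0.369%, and fell by 1.32 (adjusted p = 0.0421). The P152 values overlapped only in RRP41WT replicate 2, where P152 rests on 1 read. As at P150 and P151, reads with C at P137 cannot be recorded at P152.

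Ends outside nucleotides 140 to 200 were few and did not separate the groups. Per the study's methods, ligated RNA within a size range was cut from a gel before cDNA synthesis. The intact P-P′ fragment is longer than this range. The frequency of very short and of long ends thus depends in part on that step, and it cannot show how much intact P-P′ was present. Ends before 140 made 2.58% and 2.77% of the reads in the RRP41Pi-Cat- libraries, against 2.48% to 3.25% with active Exo9 (exact two-sided permutation test, p = 0.933). Ends after 200 made 1.10% and 1.54%, against 1.06% to 3.04% (exact permutation test, p = 0.667). With 2 against 4 libraries there are 15 relabelings, and the smallest p that this test can give is 0.0667.

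The values of total tailing overlapped between the groups. Reads with at least 1 untemplated nucleotide made 34.1% and 29.1% of all reads in the RRP41Pi-Cat- libraries, against 37.5% and 31.8% in the RRP41WT libraries and 34.4% and 31.8% in the RRP44KD rrp6L2 libraries. The difference was -2.30 percentage points (exact permutation test, p = 0.333), and it was 0.217 points without RRP41Pi-Cat- replicate 2, where no account is taken of the replicate numbers. Among libraries with the same replicate number RRP41Pi-Cat- had the lowest share both times. Reads with tails of 2 nt or more made 21.1% and 16.6%, against 21.5%, 17.8%, 19.7% and 17.4%, a difference of -0.247 points (exact permutation test, p = 0.933). This difference was 1.98 points without RRP41Pi-Cat- replicate 2 and 0.548 points without RRP41WT replicate 1.

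The places at which tails were found differed between the groups as well. Shares of all reads that were tailed at a position were tested at 25 positions, and 12 were called (48%), 6 higher and 6 lower (24% each). P169 held more tailed reads than any other position in each library of both groups except RRP41WT replicate 2, where P172 held more. Tailed reads at P169 made 11.02% and 9.71% of all reads in the RRP41Pi-Cat- libraries, against 7.77% and 5.09% in the RRP41WT libraries and 5.98% and 6.83% in the RRP44KD rrp6L2 libraries. Tailed reads at P169 were higher by 0.70 (SE 0.20, adjusted p = 0.0371, limma). At P170 they made 3.31% and 3.04%, against 1.49% to 1.87%, at P165 1.21% and 0.334%, against 0.114% to 0.129%, and at P164 0.494% and 0.367%, against 0.111% to 0.167%. These 3 were also called higher, each with an adjusted p of 0.0339, and P184 and P185 were the other 2 that rose.

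Tailed reads fell at P160, P161, P176 and P177, which were also lower among all reads, and at P175 and P178, which were not called there. At P176 they made 2.94% and 1.67% of all reads in the RRP41Pi-Cat- libraries, against 5.01% and 4.82% in the RRP41WT libraries and 5.33% and 4.03% in the RRP44KD rrp6L2 libraries (difference -1.07, adjusted p = 0.0339, limma). At P177 they made 1.66% and 1.80% in the RRP41Pi-Cat- libraries, against 2.74% to 3.94% with active Exo9 (difference -0.97, adjusted p = 0.0339). P160 and P161 were lower by 1.81 and 2.23 (adjusted p = 0.0492 and 0.0375), and at P161 1 tailed read was left in RRP41Pi-Cat- replicate 2. The calls on tailed reads were less stable than those on all reads. Their number was 4 and 2 without RRP41Pi-Cat- replicate 1 and replicate 2, 1 and 0 without RRP41WT replicate 1 and replicate 2, and 0 without either RRP44KD rrp6L2 library. All 8 positions named here lost their call when either RRP44KD rrp6L2 library or RRP41WT replicate 2 was left out, with adjusted p values of 0.104 to 0.127 without RRP44KD rrp6L2 replicate 1, of 0.0745 without RRP44KD rrp6L2 replicate 2 and of 0.0613 to 0.0669 without RRP41WT replicate 2. With centred log shares, chosen after seeing the data, 4 positions were called, 0 higher and 4 lower.

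At a given end the chance of carrying a tail differed strongly between positions and much less between the groups. At P169 the tailed reads made 84.9% and 77.4% of the reads that ended there in the RRP41Pi-Cat- libraries, against 80.6% and 68.2% in the RRP41WT libraries and 78.8% and 74.8% in the RRP44KD rrp6L2 libraries. At P176 the values were 41.4% and 39.1%, against 38.9%, 35.7%, 39.2% and 29.6%, and at P170 they were 22.2% and 19.3%, against 22.5%, 23.6%, 21.9% and 23.5%. At P186 no more than 1.39% and 2.02% of the reads were tailed, against 1.51% to 1.85%. The groups overlapped at P169, P170, P176 and P186, and at P170 both RRP41Pi-Cat- values lay in or below the range of the others.

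Over the 14 positions with enough reads in every library, limma called 0 (0%), with 2 below an unadjusted p of 0.05. These 2 were P178, with 2.73% and 1.89% of its reads tailed in the RRP41Pi-Cat- libraries, against 3.54% to 5.79%, and P175, with 3.61% and 4.04%, against 5.81% to 6.27% (adjusted p = 0.118 and 0.285). Without RRP41WT replicate 2 the number called was 1. The same 2 positions were the ones without overlap between the groups (14.3% of those tested).

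**Figure D3:**
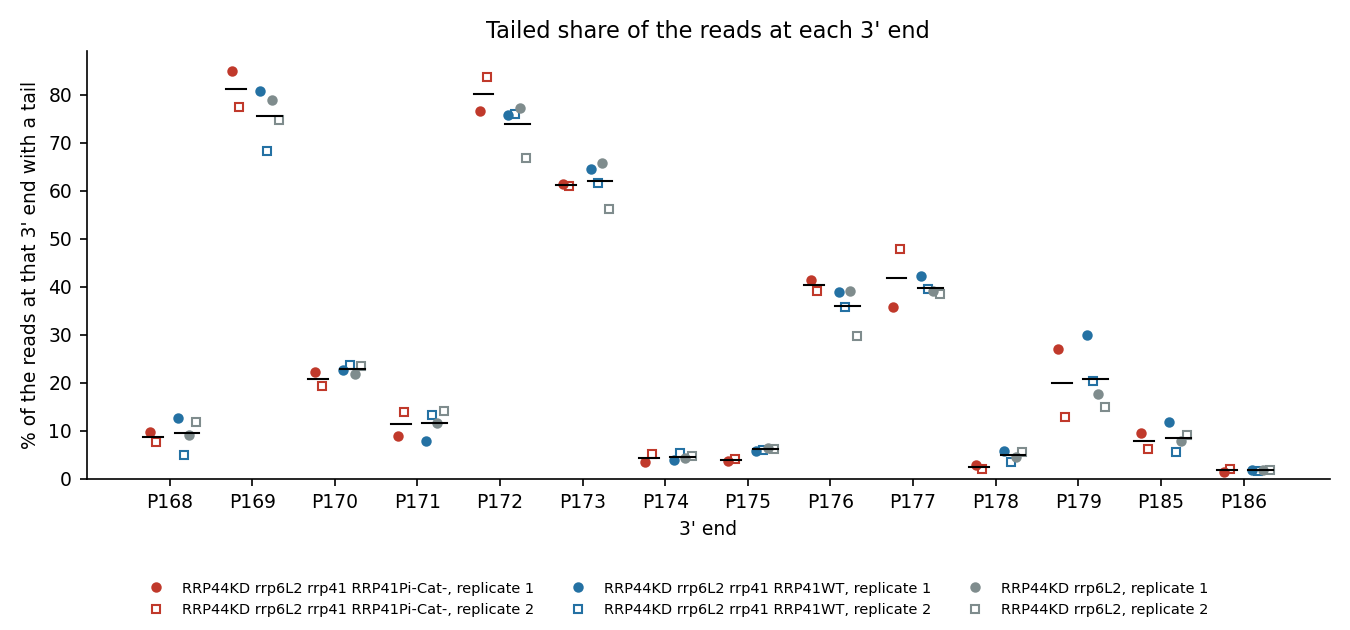
Tailed reads as percent of the reads ending at each of the 14 tested positions, with one mark per library and RRP41Pi-Cat- to the left of the libraries with active Exo9. P169 and P172 are the most tailed ends in every library and P186 carries a tail in 1.39% to 2.02% of its reads, while no position was called between the groups.

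A filter applied when the reads were processed limits what can be said on the longer tails of some ends. Reads were discarded if the second nucleotide of the tail was identical to the reference, and in the deposited reads 0 of 26426 tails of 2 nt or more have such a nucleotide. From P157 to P190 there are 8 positions with a templated A at that place, among them P166, P170 and P177, and an A-tail of 2 nt or more at these ends cannot be in the data. At P170 the 6 libraries held 6829 reads, of which 1471 carried 1 added nucleotide and 43 carried more. At P169, where this A is missing, 1291 of 6872 reads carried 1 added nucleotide and 4213 carried more. The discarded reads are also missing from the shares of all reads, at P170 and P177 in every genotype, whereas P169, P176, P185 and P186 are not subject to this loss of A-tails. The effect on the differences was not tested.

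No tail length was called. Tails of 1 nt made 38.2% and 42.8% of the tails in the RRP41Pi-Cat- libraries, against 42.6% and 44.1% in the RRP41WT libraries and 42.7% and 45.4% in the RRP44KD rrp6L2 libraries, a difference of -0.11 (SE 0.08, adjusted p = 0.337, limma). Longer tails had smaller shares, with 9.64% and 8.27% at 2 nt, against 9.56% to 11.4%, and with 2.29% and 3.21% at 10 nt, against 1.62% to 2.23%. Of 19 lengths limma called 0 (0%), and 3 lengths (10, 15 and 17 nt) were below an unadjusted p of 0.05, all with a higher estimate in the RRP41Pi-Cat- plants. Without RRP41WT replicate 1 the number called was 1. Groups did not overlap at 5 lengths (26.3%).

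As a single value, tails of 2 nt or more had a mean length of 7.62 and 7.92 nt in the RRP41Pi-Cat- libraries, against 7.65 and 7.10 nt in the RRP41WT libraries and 7.35 and 6.81 nt in the RRP44KD rrp6L2 libraries. The values overlapped in RRP41WT replicate 1 (difference 0.540 nt, exact permutation test, p = 0.200). Of these tails 28.1% and 31.1% were 10 nt or longer, against 22.7% to 27.8%, which is given as a description without a test. Tails at P169 were on average longer than those at P173 in each of the 6 libraries. At P169 their mean length was 8.12 and 8.89 nt in the RRP41Pi-Cat- libraries, against 7.52 to 8.52 nt, and at P173 it was 4.98 and 4.83 nt, against 4.57 to 6.0 nt.

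**Figure D4:**
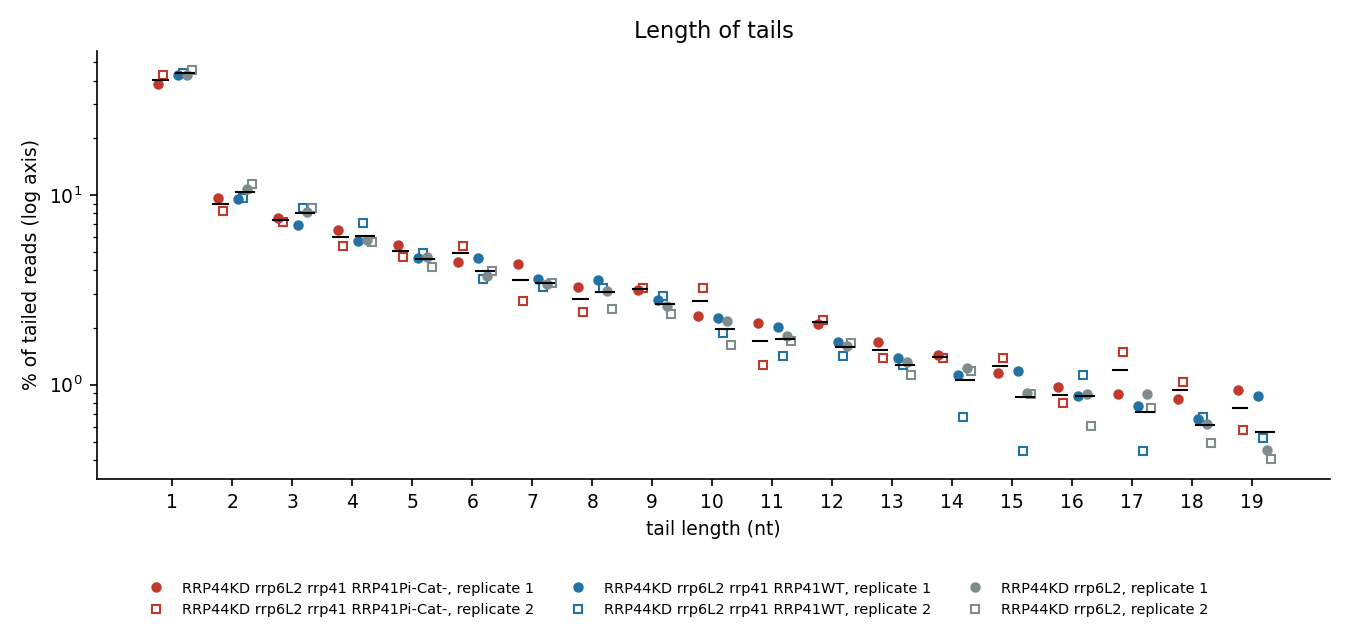
Tails of each length as percent of all tails (log axis) against tail length in nt, one mark per library (filled circles for replicate 1, open squares for replicate 2) and bars for group means, RRP41Pi-Cat- on the left. The marks of both groups run from 38.2% to 45.4% at 1 nt down to 0.405% to 0.939% at 19 nt.

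The tails consisted mainly of A. In tails of 2 nt or more, A made 93.3% and 92.6% of the nucleotides in the RRP41Pi-Cat- libraries, against 92.7% and 91.6% in the RRP41WT libraries and 92.6% and 91.3% in the RRP44KD rrp6L2 libraries (difference 0.898 points, exact permutation test, p = 0.200). Part of this figure is set by processing, because tails of 6 nt or more were kept only with a run of AAA or TTT. A single added A was the most frequent tail, with 33.2% and 37.2% of the tailed reads, against 34.1%, 36.3%, 33.2% and 35.4%, and was not called (0.02 ± 0.07, SE, adjusted p = 0.940, limma). Of 17 tail sequences 2 were called (11.8%), both lower in the RRP41Pi-Cat- plants.

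These were the single G and the single T. According to the paper, part of the single mismatched nucleotides may be sequence polymorphisms instead of additions. The repeats that were read also differed between the groups, as described below. Whether either bears on the single G and T was not tested. A single G made 2.67% and 2.53% of the tailed reads in the RRP41Pi-Cat- libraries, against 4.93% and 3.96% in the RRP41WT libraries and 4.91% and 4.40% in the RRP44KD rrp6L2 libraries, and fell by 0.78 (SE 0.15, adjusted p = 8.26e-05, limma). A single T made 1.88% and 2.53%, against 3.29%, 3.21%, 4.14% and 4.84%, and also fell by 0.78 (SE 0.16, adjusted p = 0.000147). Neither overlapped between the groups, and non-overlap held for 5 of the 17 sequences (29.4%). The call on T was lost without RRP41Pi-Cat- replicate 1 (-0.58, adjusted p = 0.0604), and both calls were lost in the fit of all 26 libraries (adjusted p = 0.967).

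The single G tails were also counted at P176 and P177, the ends that held the largest shares of them with active Exo9. At P176 they made 1.53% and 0.781% of the reads that ended there in the RRP41Pi-Cat- libraries, against 4.24% and 3.69% in the RRP41WT libraries and 3.73% and 2.92% in the RRP44KD rrp6L2 libraries. At P177 they made 6.56% and 5.31%, against 4.42%, 3.68%, 4.61% and 5.17%. The share at the end was thus lower at P176 and higher at P177, without overlap in either case, and no test was run on single sequences at single positions. Single T tails made 1.05% and 0.885% of the reads at P177, against 1.97% to 3.10%, and 0.534% and 1.56% at P176, against 1.83% to 2.85%.

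The repeats that were read differed between the groups as well. P137 is T in the reference and C in part of the reads, and it is in capitals in the stretch from P128 to P157.
P-P′ P128 to P157, chr3:14197242-14197271: tcggatagcTagtgttcgtaggctccatgc
Among reads that end at P157 or beyond and have T or C there, C made 73.1% and 71.4% in the RRP41Pi-Cat- libraries, against 47.6% and 43.0% in the RRP41WT libraries and 47.0% and 41.5% in the RRP44KD rrp6L2 libraries. The groups were 27.4 points apart without overlap, which is the most extreme of the 15 relabelings (exact permutation test, p = 0.0667, the smallest it can give).

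The changes at the main ends were present within each of the 2 kinds of reads. Among reads with T, P176 held 7.77% and 4.56% in the RRP41Pi-Cat- libraries, against 14.8% to 16.0% with active Exo9, and P170 held 14.8% and 13.7%, against 6.09% to 8.34%. Among reads with C, P176 held 7.22% and 4.40%, against 12.2% to 13.7%, and P170 held 15.9% and 17.7%, against 7.48% to 9.42%. In the fit of T reads alone 15 positions were called. Of the named positions, P157, P158, P165 and P169 were not called in it (adjusted p = 0.0810, 0.0957, 0.200 and 0.0574).

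Inactive Exo9 was also studied with RRP44 at its normal level, in rrp6L2, in mtr4 and in otherwise wild-type plants. The otherwise wild-type plants were not part of the comparison made here. In rrp6L2 and in mtr4 there were 2 RRP41Pi-Cat- libraries and 4 libraries with active Exo9 each. With those of RRP44KD rrp6L2 they made 18 libraries, which were fitted together so that the changes could be set against each other. No library is shared between these comparisons. At P176 the RRP41Pi-Cat- libraries held 7.11% and 4.27% in RRP44KD rrp6L2, against 1.06% and 2.06% in rrp6L2 and 0.858% and 0.826% in mtr4. The means with active Exo9 were 13.4% in RRP44KD rrp6L2, 10.8% in rrp6L2 and 11.7% in mtr4. P176 was thus lower with inactive Exo9 by 1.27 in RRP44KD rrp6L2, by 2.77 in rrp6L2 and by 3.63 in mtr4.

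The decrease at P176 was smaller in RRP44KD rrp6L2 than in mtr4. The difference between the changes was 2.36 ± 0.40 (SE, adjusted p = 0.000705, limma interaction contrast), and it passed in 17 of 18 alternatives, the exception being the fit of 26 libraries (adjusted p = 0.135). Of 60 positions 2 were called (3.33%), both with the higher change in RRP44KD rrp6L2. The other one was P175, with 4.36% and 3.304% in the RRP41Pi-Cat- libraries of RRP44KD rrp6L2, against 0.461% and 0.676% in those of mtr4. Its difference of 1.53 ± 0.40 (SE, adjusted p = 0.0370) passed in 7 of 18 alternatives. It was lost without RRP44KD rrp6L2 replicate 1 (adjusted p = 0.104) or replicate 2 (0.0690), without RRP44KD rrp6L2 rrp41 RRP41WT replicate 1 (0.0963) or replicate 2 (0.0631), without RRP44KD rrp6L2 rrp41 RRP41Pi-Cat- replicate 1 (0.311), and without replicate 1 of mtr4 (0.111), of mtr4 rrp41 RRP41WT (0.115) or of mtr4 rrp41 RRP41Pi-Cat- (0.193).

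Against rrp6L2 limma called 0 of 60 positions (0%), with 7 below an unadjusted p of 0.05. The strongest of them was P176, where the change differed by 1.501 ± 0.40 (SE, adjusted p = 0.0830). The next were P177, with 1.22 ± 0.42 (SE, adjusted p = 0.197), and P161, with 2.12 ± 0.74 (SE, adjusted p = 0.197). The number called was 2 without rrp6L2 rrp41 RRP41Pi-Cat- replicate 2, and also 2 without RRP44KD rrp6L2 rrp41 RRP41Pi-Cat- replicate 2.

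P166 and P186 rose in all 3 backgrounds. P166 rose by 1.96 in RRP44KD rrp6L2, by 2.72 in rrp6L2 and by 2.35 in mtr4, and its level was lowest in RRP44KD rrp6L2, where the RRP41Pi-Cat- libraries held 2.71% and 2.04% of their reads there, against 17.4% and 8.82% in rrp6L2 and 9.24% and 9.25% in mtr4. P170 had its highest level in RRP44KD rrp6L2, with 14.9% and 15.8% in RRP44KD rrp6L2, against 3.64% and 3.61% in rrp6L2 and 3.64% and 6.23% in mtr4. These levels were ordered alike with active Exo9. There the mean at P170 was 7.38% in RRP44KD rrp6L2, 2.53% in rrp6L2 and 3.36% in mtr4. The mean at P166 with active Exo9 was 0.535%, 1.81% and 1.75% in the same order, again lowest in RRP44KD rrp6L2. The change at P170 was 1.05 in RRP44KD rrp6L2 and 0.50 in each of the others, and these changes did not differ past the threshold (adjusted p = 0.571 against rrp6L2 and 0.666 against mtr4, limma). P186 rose by 1.51 in RRP44KD rrp6L2, by 1.09 in rrp6L2 and by 1.55 in mtr4, and P166 and P186 were not called in either contrast.

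**Figure D5:**
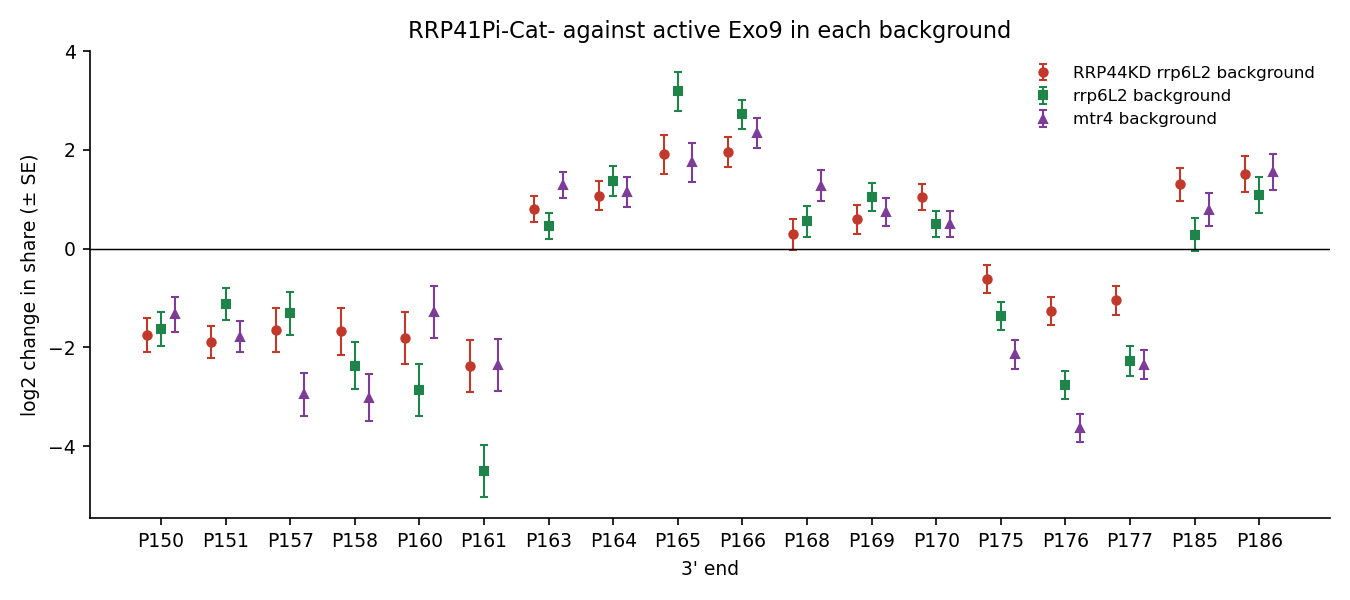
Change with inactive Exo9 (RRP41Pi-Cat- minus active Exo9, log2 of percent + 0.1, bars ± SE of the 18-library fit) at 18 ends in RRP44KD rrp6L2 (circles), rrp6L2 (squares) and mtr4 (triangles). At P176 the change is -1.27 in RRP44KD rrp6L2, -2.77 in rrp6L2 and -3.63 in mtr4, and at P166 it is positive in all 3 backgrounds.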

How the data were processed

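Total RNA of rosette leaves was analysed by 3′RACE-seq of the 5′ ETS, a paired-end assay in which an adapter with random bases is ligated to the 3′ end. The ligated RNA was selected by size on a gel before cDNA synthesis. The authors deposited 1 line per deduplicated read, with the 3′ end as a position in nt, the matched sequence, the tail and the tail length in nt, and with replicates kept apart. Per the study's methods, the authors matched 20 nt of read 2 exactly to a cloned ribosomal RNA repeat, removed unmatched nucleotides one at a time (up to 30 nt) as the tail, discarded reads whose second tail nucleotide is identical to the reference, and kept tails of 6, 10 and 15 nt or more only with 1, 2 and 3 runs of AAA or TTT. Tails up to 30 nt can thus be seen. Nucleotides 1 to 200 were located in TAIR10.1 by an exact match.

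From these reads, shares per library were computed with Python 3.11.15 and pandas 2.3.3. The 6 libraries held 70310 reads, of 224354 in the series. Shares of positions with a mean of at least 0.1% (tail lengths and sequences: 0.5% of tailed reads) were tested on log2(percent + 0.1) with limma 3.58.1 in R 4.3.3 (trended eBayes, RRP41Pi-Cat- minus the mean of both genotypes with active Exo9, Benjamini-Hochberg adjustment within each fit). For the tailed share at a position, at least 30 reads were required in each library, and a logit with 0.5 reads added was used. Single values were compared by exact two-sided permutation in Python, and the Wilson intervals were computed with scipy 1.17.1. The interaction contrasts used 18 libraries. The p-values measure the spread between these libraries, with 2 pools of plants per genotype. The fit of positions among all reads in the 6 libraries was tested on simulated data, and the other fits were not. In the simulation positions varied independently, without a replicate effect, and unchanged positions kept their share. It therefore does not cover shares that sum to the whole or libraries that deviate together.

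Named are P161, P168, P169, P170, P176, P186 and the 16 called positions with the largest difference in percentage points, the 8 largest for tailed reads and the 10 most frequent tail lengths and sequences with every called one. Members, positions and tests were chosen with earlier results of these data known. Alternatives covered the pseudocount, the filter, the region, templated A, T at P137, all 26 libraries, the trend, the arcsine scale, 1 group with active Exo9, the replicate block, untailed reads, each library left out and, after seeing the data, centred shares.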

Additional observations from a re-analysis of the deposited data

Results flagged for a closer look

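Of 52 values examined for a library far from the other 3 with active Exo9, 3 were marked, and chance marks about 1 in 20. At P176 RRP41WT replicate 1 (12.9% of all reads) lay apart from the other 3 libraries (13.5% to 13.6%), with a gap of 0.891 of the range. For tails of 4 nt, RRP41WT replicate 2 (7.10% of tailed reads) lay apart from the others (5.62% to 5.82%), with a gap of 0.866 of the range. For ends before nucleotide 140, RRP44KD rrp6L2 replicate 1 (3.25% of all reads) lay apart from the others (2.48% to 2.59%), with a gap of 0.859 of the range.

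Between backgrounds, the change with inactive Exo9 differed between RRP44KD rrp6L2 and mtr4 by 2.36 at P176 and by 1.53 at P175 on the log2 scale, as tested by the interaction contrast.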

How the results depend on the processing

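Among all reads, 18 positions were called, and 5 without a filter on low shares (286 positions tested). Leaving out 1 library gave 9 to 21. RRP41WT against endogenous RRP41 gave 0 to 1. For tailed reads 12 positions were called, 4 with centred log shares and 0 to 4 with 1 library left out. Tailed shares at positions and tail lengths gave 0 to 1 each. Of tail sequences 2 were called and 0 in the fit of 26 libraries. With tails of 2 nt or more 0 were called, where the single G and T that make up the 2 calls are left out by construction. The 2 positions that differed from mtr4 became 1 with a pseudocount of 0.5%, 1 without a filter, 0 with 26 libraries and 1 to 4 with 1 library left out, and the 0 that differed from rrp6L2 became 0 to 2. Apart from that restriction, the cause was not tested. Centring moved the median change of all positions from -0.06 to -0.30.

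With 1 library left out, the difference ranged from -4.81 to 0.217 points for tailed reads, from -2.47 to 1.98 for tails of 2 nt or more, from -0.131 to 0.143 for ends before 140 and from -0.640 to 0.0231 for ends after 200. Mean tail length (0.390 to 0.690 nt), A content (0.540 to 1.26 points) and C at P137 (26.4 to 28.4 points) kept their direction. Uncalled single features changed sign: P168 among T reads (-0.11), tails of 7 nt with tails of 2 nt or more (-0.061) or ends from 140 to 200 (-0.0052), and AAA (-0.060), AAAA (-0.050) and AAAAAAA (-0.020) with tails of 2 nt or more. With 1 library left out the estimates ran from -0.066 to 0.099 for A, -0.023 to 0.060 for AAA, -0.19 to 0.25 for AAAA, -0.29 to 0.41 for AAAAAAA, -0.18 to 0.040 for AAAAAAAA, -0.16 to 0.11 for 4 nt, -0.30 to 0.34 for 7 nt and -0.34 to 0.083 for 8 nt.

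The labels give shared replicate numbers and no shared day. Same-numbered libraries deviated together (correlations of 0.73, 0.52 and 0.48 over 48 positions), and with the replicate block 31 positions were called among all reads, 1 between RRP41WT and endogenous RRP41, 11 among tailed reads and 3 tail sequences. The block gave an exact p of 0.111 for tailed reads, A content and C at P137, the smallest it can give, 0.222 for mean length, 0.889 for tails of 2 nt or more, 0.556 for ends after 200 and 1 for ends before 140.

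RRP41Pi-Cat- replicate 2 holds 2996 reads, so that shares near 0.1001% rest on 3 reads there.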
